A study of Mus musculus with 3 samples.

Results

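Nucleotide sugar transporters of the Slc35 family were examined in B16 cells, a mouse melanoma line. The set was chosen by gene symbol: Slc35a2, Slc35a3, Slc35a4, Slc35a5, Slc35b1, Slc35b2, Slc35b4, Slc35c1, Slc35c2 and Slc35d1. All 10 had a row among the 17285 rows of the table, and 0 lacked one. The CMP-sialic acid transporter gene Slc35a1 is not among them. RNA was sequenced in 3 libraries, Mock replicates 1, 2 and 3, of B16 cells that stably carry an empty vector. They form a single group with no other genotype, treatment or time point, so levels were compared between genes and between libraries, not between conditions. Whether the stable line is a clone, and whether its samples were grown apart, the labels do not say. The p-values therefore reflect nothing wider than the scatter of these 3 libraries, which may be technical. In such bulk RNA, fewer expressing cells and less RNA per cell cannot be told apart.

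Sugars are joined to lipids and proteins in the lumen of the Golgi apparatus and the endoplasmic reticulum (ER), whereas most activated sugars are made in the cytosol. Slc35 proteins carry these donors across the membrane, generally in exchange for the spent nucleotide, and so supply the transferases inside. Gangliosides, the glycolipids named in the series title, need UDP-galactose at the step from glucosylceramide to lactosylceramide. Not every listed gene encodes a Golgi carrier of a nucleotide sugar. Slc35b1 is known as an exchanger of ATP and ADP in the ER, Slc35d1 as an ER carrier of UDP-glucuronic acid and UDP-N-acetylgalactosamine, and Slc35b2 as a Golgi carrier of PAPS, the activated sulfate.

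The libraries held 9328096, 9456527 and 9438905 counts, and 1 read was worth about 0.106 CPM (reads scaled to library size). The extraction text in the labels also speaks of organs, so markers were read first. All 6 pigment cell markers were above 1 CPM. Of 16 markers of other cell types 14 had a row, of which 13 had no count and Pecam1 had 3 reads over the libraries.

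All 10 transporter genes were transcribed above 1 CPM, as were 74.3% of all 14408 genes tested. The highest adjusted p among them was 8.03e-11, for Slc35a5 (edgeR's quasi-likelihood test with Benjamini-Hochberg adjustment). Their median level was 60.5 CPM, against 23.6 CPM over all genes with a count. Together they collected 783 ± 6.13 CPM (mean ± SD, n = 3, as for all values given with ±). Slc35a4 and Slc35b1 alone supplied 44.65% ± 1.14 of these reads. Mean read levels ran from 16.2 CPM for Slc35a5 to 180.4 CPM for Slc35a4, and the 3 libraries of each gene lay close together, as the plot of CPM by library shows.

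**Figure D1:**
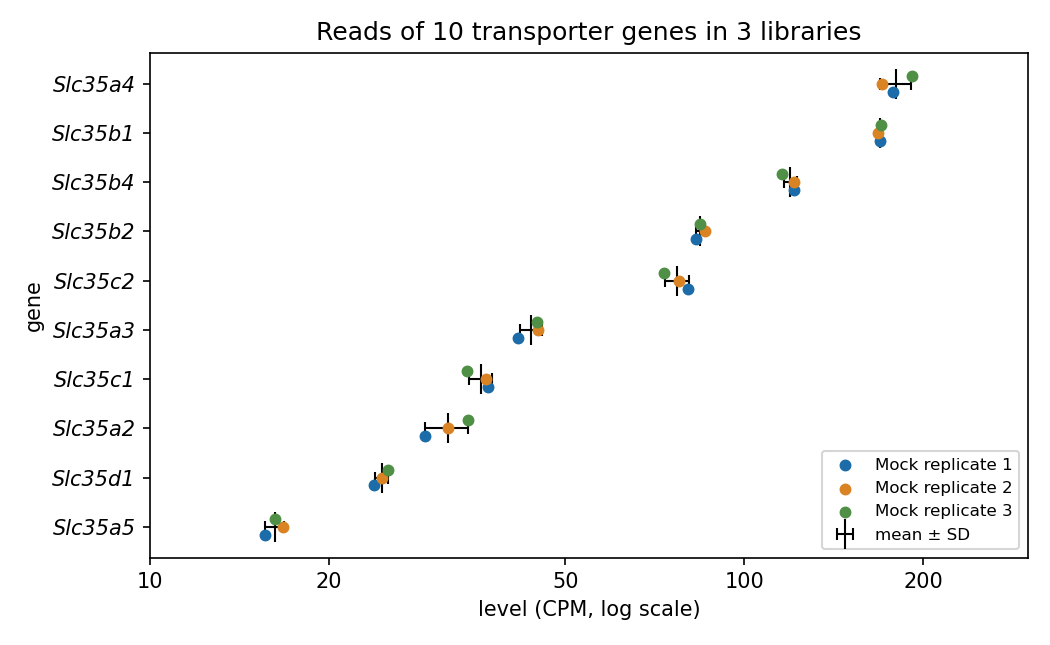
Level of the 10 transporter genes in each of the 3 Mock libraries, on a logarithmic axis of CPM; points are libraries, and the vertical bar with its whiskers is the mean ± SD. Slc35a4 and Slc35b1 lie between 168.3 and 192 CPM and Slc35a5 near 16 CPM, and points of one gene sit close together relative to the range across genes.

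Slc35a2, the carrier of UDP-galactose, had 272, 299 and 323 reads in replicates 1, 2 and 3, or 29.1, 31.7 and 34.3 CPM. Replicate 1 was the lowest and replicate 3 the highest, a ratio of 1.18, the widest of the 10 genes. The gene lies on chromosome X (7884028 to 7894492, plus strand, GRCm38) and is annotated with 12 transcripts and 4.73 kb of merged exon. Divided by that length its level was 6.70 ± 0.550 CPM per kb, above the median of 4.92 CPM per kb over the genes with a count and a length and below that of 8.44 CPM per kb over the 10869 of them that averaged 10 or more reads per library. Because it feeds galactose to lactosylceramide synthesis, Slc35a2 served as the reference for levels per kilobase below.

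Slc35a3 and Slc35b4 encode carriers of UDP-N-acetylglucosamine. Slc35a3 (chromosome 3, 116669470 to 116712831, minus strand), a Golgi carrier that serves N-glycan branching, had 390, 425 and 422 reads, or 41.7, 45.0 and 44.8 CPM. Slc35b4 (chromosome 6, 34153380 to 34177111, minus strand), which also carries UDP-xylose, had more reads in every library, at 121.4, 121.5 and 116 CPM. Per kilobase of merged exon Slc35a3 stood at 4.06 ± 0.174 and Slc35b4 at 13.0 ± 0.339 CPM per kb. An antisense gene model, Gm13856, overlaps 919 bases of the exons of Slc35b4. Without the use of strand being known, the reads of Gm13856 and of Slc35b4 cannot be told apart there. A protein-coding gene model on the same strand, Gm43191, overlaps 275 bases of the exons of Slc35a3, where strand would not separate the reads.

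Slc35c1 and Slc35c2 are the transporters linked to fucose. Slc35c1 (chromosome 2, 92452764 to 92460538, minus strand), the Golgi GDP-fucose carrier, had 347, 347 and 322 reads, or 37.1, 36.8 and 34.2 CPM. Slc35c2 (chromosome 2, 165276554 to 165287869, minus strand), a related Golgi protein known to influence fucosylation of Notch, had 753, 733 and 690 reads, or 80.5, 77.7 and 73.2 CPM. Both were lowest in replicate 3, and Slc35c2 had more reads in each library. Per kilobase they stood at 11.0 ± 0.491 and 19.7 ± 0.937 CPM per kb.

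Slc35b2 (chromosome 17, 45563874 to 45567671, plus strand), the Golgi carrier of PAPS, the sulfate source for heparan sulfate, chondroitin sulfate and protein tyrosines, had 776, 810 and 794 reads. This was 82.9, 85.9 and 84.2 CPM, or 27.2 ± 0.476 CPM per kb, the third level of the set. The other known PAPS carrier gene, Slc35b3, named here after its value was seen, had 15.6 ± 0.983 CPM and 2.69 ± 0.170 CPM per kb.

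Of the ER carriers, Slc35b1 was first per kilobase and Slc35d1 ninth. Slc35b1 (chromosome 11, 95384692 to 95391776, plus strand) had 1584, 1588 and 1601 reads, or 169.2, 168.3 and 169.8 CPM. It was the highest gene per kilobase, at 76.1 ± 0.337 CPM per kb, above 95.7% of the genes with a count and a length. Slc35d1 (chromosome 4, 103170649 to 103215164, minus strand), a carrier needed for chondroitin sulfate in cartilage, had 223, 232 and 237 reads, or 23.8, 24.6 and 25.1 CPM. At 2.87 ± 0.0772 CPM per kb it lay above 40.3% of those genes.

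Of the remaining pair, Slc35a4 is reported to carry CDP-ribitol, an activated sugar alcohol, and the donor of Slc35a5 is less well settled. Slc35a4 (chromosome 18, 36679215 to 36683861, plus strand) had 1669, 1611 and 1811 reads, or 178, 171 and 192 CPM, with replicate 3 highest. At 55.1 ± 3.30 CPM per kb it was second of the set. It was also the 1 gene of the set with a fractional count, and 20.5% of its words of 31 bases occur in other annotated transcripts, mostly those of the gene model Gm5866 and of its opposite-strand neighbour Apbb3. Slc35a5 (chromosome 16, 45139573 to 45158706, minus strand) had 146, 158 and 153 reads, or 15.6, 16.7 and 16.2 CPM, and was lowest on both scales, at 2.0 ± 0.0709 CPM per kb.

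Set against Slc35a2 within each library, 6 of the 9 other transporters were higher per kilobase and 3 were lower. Over all 10868 genes tested the shares were 52.8% higher and 39.8% lower. The calls are limma's with Benjamini-Hochberg adjustment on within-library log2 ratios. Intervals below are exact 95% binomial (Clopper-Pearson) intervals of summed reads and cover counting error only. Slc35b1 was 11.4-fold higher (interval 10.6 to 12.2), Slc35a4 8.22-fold (7.66 to 8.84) and Slc35b2 4.06-fold (3.75 to 4.38). Slc35c2 followed at 2.94-fold (2.72 to 3.18), Slc35b4 at 1.95-fold (1.81 to 2.10) and Slc35c1 at 1.64-fold (1.50 to 1.80). Slc35a3 was lower than Slc35a2 by 1.65-fold (1.51 to 1.80), Slc35d1 by 2.33-fold (2.11 to 2.58) and Slc35a5 by 3.35-fold (2.99 to 3.76). Each of these 9 differences had the same direction in 3 of 3 libraries. The adjusted p closest to the threshold was 1.78e-14, for Slc35c1, whose log2 ratio was 0.72 ± 0.18. Since the reads of Slc35a2 enter every ratio, these tests are not independent and their p-values are too small.

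Part of this order depended on the gene length used. Slc35a3, at 10.8 kb, and Slc35b4, at 9.18 kb, have long merged exons but merged coding parts of 1398 and 1039 bases. Per kilobase of coding sequence Slc35a3 was above Slc35a2, with a log2 ratio of 0.56 and an adjusted p by limma of 1.64e-09. Over all alternatives its adjusted p ran from 8.44e-29 to 7.60e-05, in either direction. The log2 ratio of Slc35d1 on that scale was 0.03, with no call (limma adjusted p = 0.736). With the longest transcript as the length, Slc35c1 was not distinguishable from Slc35a2 (log2 ratio 0.17, adjusted p = 0.0793). Under merged exon, longest transcript and coding length alike, Slc35b1 was first, Slc35a4 second and Slc35a5 last. The ratio of the highest to the lowest transporter was 38.1 per kilobase of merged exon and 13.2 per kilobase of coding sequence.

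**Figure D2:**
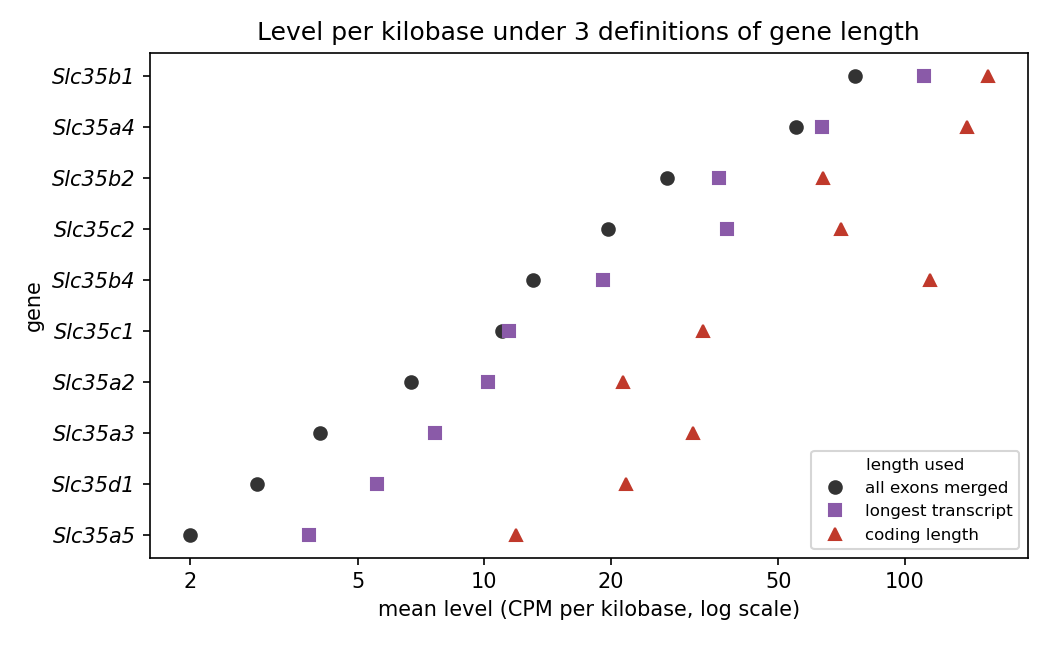
Mean level per kilobase of the 10 transporter genes on a logarithmic axis, with the length taken as all exons merged (circles), the longest transcript (squares) or the coding part (triangles). Slc35b1 and Slc35a4 lead and Slc35a5 is last under each length, while Slc35b4 and Slc35a3 move up among their neighbours when only the coding part is counted.

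With merged exons, each of the 9 steps between neighbours in the order exceeded 2 SD of its within-library log2 ratio, and no neighbours overlapped between libraries. The order was Slc35b1, Slc35a4, Slc35b2, Slc35c2, Slc35b4, Slc35c1, Slc35a2, Slc35a3, Slc35d1 and Slc35a5. The widest step was from Slc35a4 to Slc35b2, at 1.02 ± 0.099 on the log2 scale, and the narrowest from Slc35b4 to Slc35c1, at 0.245 ± 0.028. Other lengths left some neighbours unseparated. With the longest transcript these were 2 pairs, Slc35c2 with Slc35b2 (0.058 ± 0.080) and Slc35c1 with Slc35a2 (0.17 ± 0.18). With the coding length they were 3 pairs, Slc35c2 with Slc35b2 (0.14 ± 0.080), Slc35c1 with Slc35a3 (0.077 ± 0.11) and Slc35d1 with Slc35a2 (0.034 ± 0.080). The spread between libraries does not include the uncertainty of the length.

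Promoter windows from RefSeq (GRCm38.p6, 250 bases before to 50 after a start) were matched by symbol for 9 of the genes, in 11 windows. They had a median GC content of 61.3% and 19 CpG sites, against 52.7% and 7 over all 32851 windows of that length. The letters GGGCGG (GC box), searched on both strands as all motifs here, stood in 7 of the 11 windows and in 35.7% of all windows. Slc35c1 and Slc35c2 have 2 windows each. Those of Slc35c2 overlap and both hold the GC box letters, so the 11 windows are not independent. The TATA box letters, TATAAA, stood in 0 of 11 and in 13.6% of all. CCAAT was found in 1 window, that of Slc35b4, and in 37.4% of all. CACGTG, the E-box letters that the melanocyte factor MITF is known to bind, occurred in 1 window, that of Slc35a5, where it stands at 2 places, and in 7.15% of all windows. The 80 bases just before the outermost annotated start are shown for the highest gene per kilobase and the 2 lowest, 5′ to 3′ on the gene's strand, with GC box and E-box letters in capitals. The first is chr11:95384612-95384691 (plus strand), the second chr4:103215177-103215256 (minus strand) and the third chr16:45158707-45158786 (minus strand).
Slc35b1: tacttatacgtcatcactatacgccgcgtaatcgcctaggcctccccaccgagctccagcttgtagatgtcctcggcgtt
Slc35d1: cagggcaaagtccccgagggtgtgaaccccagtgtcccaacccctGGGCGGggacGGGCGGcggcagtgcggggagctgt
Slc35a5: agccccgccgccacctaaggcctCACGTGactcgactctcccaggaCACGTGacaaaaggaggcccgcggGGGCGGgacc
The stretch of Slc35b1 holds none of these letters and is 55.0% GC, whereas those of Slc35d1 and Slc35a5 are 72.5% and 70.0% GC. The matches describe the letters alone, and no binding was measured.

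None of the 10 transporter genes varied between libraries beyond counting error at an adjusted p under 0.05, while 3.31% of 11000 genes did (Poisson deviance test, chi-square approximation, Benjamini-Hochberg adjustment). At an unadjusted p under 0.05 there was 1, Slc35a4, with an adjusted p of 0.0615 (range over its alternatives 0.0499 to 0.672). Its highest library exceeded its lowest by a ratio of 1.12, and without replicate 1 it was called (0.0499). Slc35b1 was the most even, with a coefficient of variation of 0.444%, against 2.51% expected from counting alone. For 7 of the 10 genes the coefficient of variation was below that expectation. At this depth a difference between libraries of a few percent was not detectable for Slc35a5, whose counting error per library was 8.10%.

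**Figure D3:**
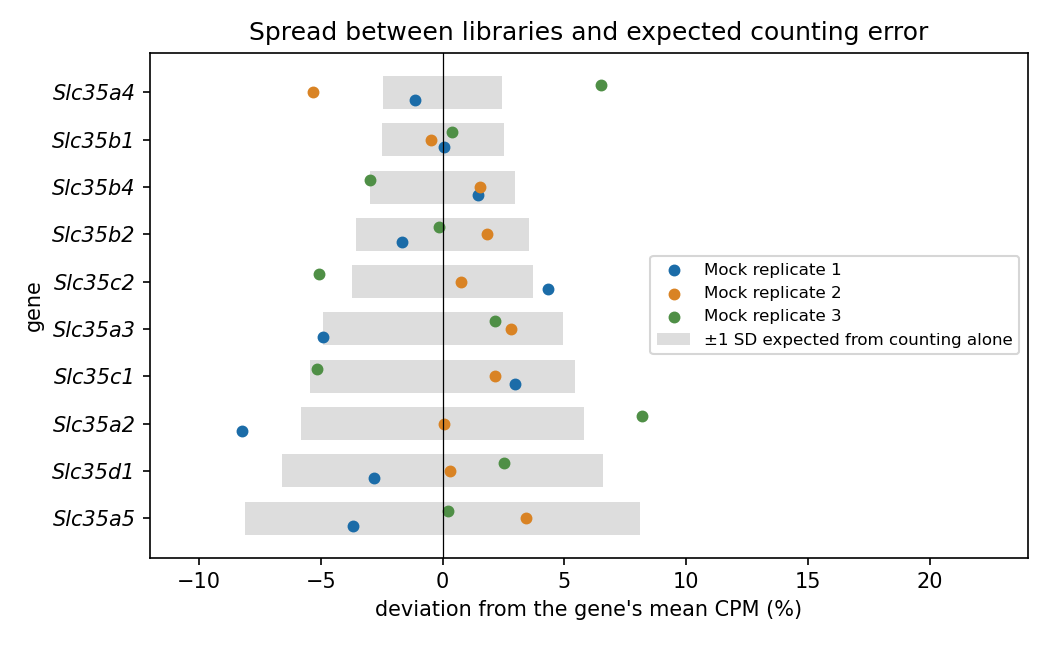
Deviation of each Mock library from the gene's mean CPM, in percent, for the 10 transporter genes; grey bars span 1 SD either side as counting reads alone would give. Replicates 2 and 3 of Slc35a4 and replicates 1 and 3 of Slc35a2 and Slc35c2 lie outside their bars, replicate 3 of Slc35b4 and replicate 1 of Slc35a3 lie at the edge of theirs, and the libraries of Slc35b1 almost coincide.

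Of 117 other listed genes of the pathway 107 had a row, of which 12 had no count. Of the 95 with a count 79 were above 1 CPM (83.2%), 14 below (14.7%) and 2 unresolved, where 74.3% of all 14408 genes with a count were above and 20.2% below. The lists were chosen by function, and no test compared them with other genes. In the rest of the Slc35 family 10 of 13 genes with a count were above and 3 below. The highest were Slc35f1 at 177.8 ± 2.08 CPM and Slc35e1 at 164 ± 5.75 CPM. Per kilobase these were at 36.0 ± 0.421 and 36.8 ± 1.29, between Slc35a4 and Slc35b2, while Slc35f4 and Slc35g3 had no counts. All 4 nucleoside diphosphatase genes, whose enzymes turn the released nucleotide into the form that the carriers export, were above 1 CPM, led by Cant1 at 71.3 ± 4.20 and Entpd6 at 24.6 ± 1.55 CPM. Enzymes that make the donors were above in 17 of 18 cases. The exception was Papss2, an enzyme of PAPS synthesis, with 1 read in all, whereas its paralog Papss1 had 38.7 ± 2.90 CPM. Of 60 transferase genes with a count 48 were above, 10 below and 2 unresolved, against the same background. None of the 79 pathway genes with enough reads varied between libraries by the Poisson deviance test, where 3.31% of all genes did.

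Levels per kilobase of merged exon were summed over transporter, synthesis and transferase genes of each donor. The transporter sum was the lowest of the 3 sums for 5 of 6 donors, in every library. The count was 5 with the longest transcript, 4 in reads without length and 3 with coding length (all added after seeing the data). These sums follow the number of genes listed and are given as a description with no test. They take no account of the cell compartment of each enzyme, so the 3 are not successive steps for every donor. Of the carriers, Slc35c2 (19.7 CPM per kb) was left out of the GDP-fucose sum and Slc35b3 (2.69 CPM per kb) out of the PAPS sum. No other gene from the rest of the Slc35 family was in any sum either. The count of donors rests on that choice of carriers. Slc35a2 stood at 6.70 CPM per kb beside 106 ± 7.29 for 3 genes that make UDP-galactose, of which Galk1 supplied 82.2%, and 84.0 ± 1.78 for 15 galactosyltransferase genes, led by B4galt5. Slc35d1 stood at 2.87 CPM per kb beside 51.3 ± 0.485 for Ugp2 and Ugdh. Ugp2 supplied 87.2% of that sum, and Ugdh alone, at 6.58 CPM per kb, was also above Slc35d1. The 8 transferases of glucuronic acid, led by Chpf, reached 176 ± 0.553. Slc35c1, at 11.0 CPM per kb, was closer to the sum of the 6 fucosyltransferase genes, 25.8 ± 0.936, of which Pofut2 supplied 60%. Of these genes only Pofut2, at 15.5 CPM per kb, was above Slc35c1 per kilobase of merged exon. In reads Pofut1, at 52.7 CPM, and Fut8, at 39.2 CPM, were above it as well, Slc35c1 being at 36.0 CPM. Per kilobase of merged exon the synthesis genes of GDP-fucose stood higher than the fucosyltransferases, at 49.5 ± 0.402, led by Tsta3 and Gmds. With the longest transcript they were also higher, at 85.8 against 37.9. Per coding kilobase Slc35c1 was at 33.1, synthesis at 133.9 and the fucosyltransferases at 136.5. In reads these were 36, 174 and 214.1 CPM, so this order depended on the length used. Slc35a3 and Slc35b4 together reached 17.1 ± 0.310 CPM per kb, against 34.1 ± 1.25 for synthesis of UDP-N-acetylglucosamine and 214 ± 3.93 for its transferases, 54.1% of that from Mgat4b. Slc35b4 alone, as the carrier of UDP-xylose, stood beside Uxs1 at 22.2 ± 0.809 and 7 xylosyltransferase genes at 79.7 ± 1.47, led by Gxylt2. In reads Slc35b4 was above Uxs1, at 119.6 against 113 CPM, and per coding kilobase at 115.1 against 81.0. The sum of Slc35a3 and Slc35b4 per coding kilobase was 146.5, level with UDP-N-acetylglucosamine synthesis at 145.8.

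For PAPS the transporter was above synthesis under each of these lengths. Slc35b2, at 27.2 CPM per kb, exceeded PAPS synthesis at 12.7 ± 0.967, nearly all of it Papss1, and lay below 19 sulfotransferase genes at 130.8 ± 1.19, led by Ndst1. For CDP-ribitol, the transporter gene Slc35a4 lay at 55.1 CPM per kb and the synthase gene Ispd at 2.04 ± 0.0650 CPM per kb (SD, n = 3). Among genes of these lists without a count were B3galt2, B3gnt5, Fut1, Fut9, Gal3st1, Ndst4, Chst7, Chst10, Chst13 and Chst15, each of which allows up to 0.106 CPM (3 counts over the group).

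**Figure D4:**
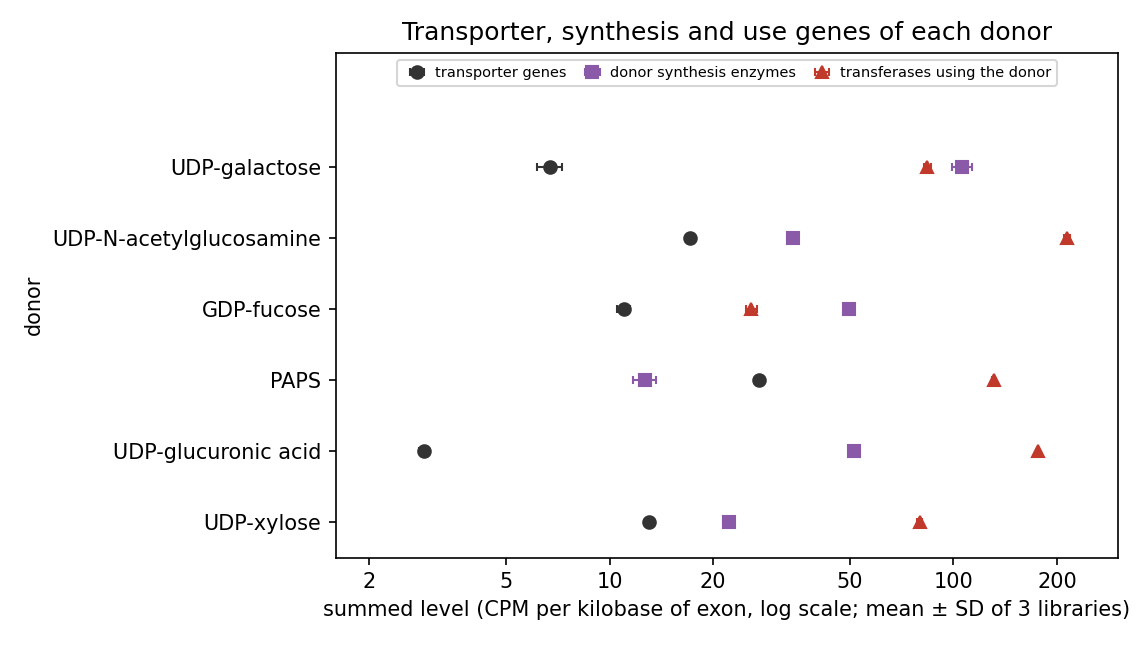
Summed level per kilobase of exon for the transporter genes (circles), the enzymes that make the donor (squares) and the transferases that use it (triangles), for 6 donors on a logarithmic axis, with merged exons as the length; bars are the SD over 3 libraries. The transporter is the leftmost symbol for 5 donors and lies between the others for PAPS. Slc35c2 and Slc35b3 are in none of the sums.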

How the data were processed

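The file the authors deposited holds estimated counts by gene symbol for each Mock library, not normalized. The submitters' processing notes name GRCm38.p6 as the build. Which aligner, counter and annotation were used, and whether strand was, is not given in the sources used here. Of the rows, 13.1% held a value more than 0.005 from a whole number, and counts were rounded before every test. Totals were scaled by TMM factors of 1.003, 0.998 and 0.999. Lengths and positions came from GENCODE M21 (GRCm38) by symbol. Tmem5, listed there as Rxylt1, was taken under the former name, since the table holds both.

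Levels were tested against 1 CPM with edgeR 4.0.16 (intercept-only quasi-likelihood fit, genes with at least 1 count). Ratios to Slc35a2 used limma 3.58.1 (R 4.3.3) on counts plus 0.5 per kilobase, for a mean of at least 10 counts, which also bounded the Poisson deviance test (2 degrees of freedom). Adjusted p-values cover all genes tested, with calls at 0.05. Tests were tried on simulated data, in which the ratio test also called some genes simulated without a difference. Alternatives were other scalings, filters, lengths, pseudocounts, DESeq2 1.42.0 and each replicate left out. Named pathway genes are the 2 highest of each list or donor and those without a count, with Slc35b3 and Fut8 added. Plots used matplotlib 3.10.9. Members and lists were chosen with earlier results of these data known. Listed genes without a row, among them Slc35f2, Fut2, Fut4 and B3gat1, were not analysed here, and some pathway genes are not reported here.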

Additional observations from a re-analysis of the deposited data

How the results depend on the processing

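Of 78 recomputed counts of calls, neighbours or donors, 72 stayed within 1.5 times the reported value, and of 231 recomputed values of single transporter genes, 226 kept their direction and their side of the threshold. All 10 transporters were above 1 CPM under each alternative run, including a threshold of 5 CPM and DESeq2's Wald test. The exceptions concerned length and, in Slc35a4, 1 left-out library. With coding length, an alternative chosen after seeing the data, 1 transporter instead of 3 was below Slc35a2: Slc35a3 turned to a log2 ratio of 0.56 and Slc35d1 to 0.034 (no call). Without any length Slc35a3 was at 0.47. These follow from the lengths themselves, since the reads are the same. Neighbours within their spread numbered 0 with merged exons, 2 with the longest transcript, 3 with coding length and 3 without length. Donors whose transporter sum was the lowest numbered 5 with merged exons and 3 with coding length. The count of transporters varying between libraries was 0 or 1 when replicates were dropped one by one; the 1 was Slc35a4 without replicate 1, and the cause was not tested. Exact Poisson and binomial tests of summed reads, also added later, changed no call. Coding length from a protein table was not run. No paired analysis was possible because the series has 1 group. Depth limits single-library values most for Slc35a5 and Slc35d1, whose counting error was 8.10% and 6.58%.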
